A study of Mus musculus with 12 samples.

Results

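The genes described here encode the machinery that builds and maintains the cilium, chosen from a list of 44 mouse genes of intraflagellar transport (IFT), the BBSome, ciliary GTPases of the ARL family, the IFT motors and the transition zone. Of these 44 genes, 42 had a probe set that the platform's annotation assigns to that gene alone, among 19938 such genes on the array, and Arl6 and Arl13b were not analysed here. Expression was measured by Affymetrix Mouse Gene 1.0 ST arrays in the main olfactory epithelium (MOE) of H2be-KO and wild-type (WT) mice after unilateral naris occlusion (UNO), in which the right nostril was sealed by cautery on day 14 after birth. There were 4 groups of 3 samples, the closed and the open side of the MOE in the KO and in the WT, and each sample pooled tissue of 2 mice, 1 female and 1 male, by the series' design text, while the study's own description gives a larger number of animals per sample. The titles of the samples give an age of 5 weeks, after 3 weeks of closure, while an age tag of the same samples reads 6 months. H2be encodes a histone H2B variant of olfactory sensory neurons (OSNs), and in the KO its coding sequence is exchanged for that of a membrane-targeted mCherry. The labels do not say whether the closed and open samples of a number came from the same mice, so p-values measure the spread between these samples.

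Each OSN ends in a dendritic knob from which long immotile cilia spread over the surface of the epithelium, and the odorant receptors and the transduction channels sit in the membrane of these cilia. IFT carries cargo along the ciliary microtubules: the IFT-B complex moves outward with kinesin-2 motors, and the IFT-A complex returns with the dynein-2 motor. The BBSome, an adaptor made of Bardet-Biedl syndrome proteins, moves membrane proteins into and out of the cilium, and the transition zone at the ciliary base gates what passes. Loss of several BBSome proteins in mice shortens olfactory cilia and impairs the sense of smell. The MOE samples were bulk tissue, so fewer cells of a type and less RNA per cell cannot be told apart, and multiciliated respiratory cells use the same IFT proteins for motile cilia.

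RFX transcription factors bind a palindromic element named the X-box in promoters of ciliary genes. In the RefSeq promoters of build GRCm38.p6, which run from 250 bases before to 50 bases after each transcription start, 39 of the 44 genes had an entry. The strict form of the X-box, GTTNCC followed by 0 to 3 bases and GGNAAC, reads the same on both strands and occurred in the promoters of 4 of these 39 genes (10.3%), Bbs7, Mks1, Tctn1 and Ift57, against 0.936% of all 27025 genes with a promoter. The letters GTTGCC, the left arm of this element, occurred on either strand in 18 of the 39 (46.2%), against 14.1% of all genes, and every match to the strict form shown here contains them. A looser form of the consensus, in which most positions admit 2 bases, occurred in 22 of the 39 (56.4%), against 37.9% of all genes. These forms were settled after the promoters had been seen. The 4 strict matches are shown with the bases around them, since Bbs7 and Mks1 are among the genes with the largest differences between KO and WT in the results that follow. The X-box is in capitals.
Bbs7, chr3:36613457-36613550, minus strand, X-box from 121 to 108 bases before the start: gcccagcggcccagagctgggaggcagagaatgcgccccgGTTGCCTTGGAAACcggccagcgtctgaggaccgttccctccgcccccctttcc
Mks1, chr11:87853151-87853244, plus strand, X-box from 24 to 11 bases before the start: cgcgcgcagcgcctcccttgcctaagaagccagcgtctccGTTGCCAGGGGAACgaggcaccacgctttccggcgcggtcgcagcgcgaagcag
Tctn1, chr5:122264411-122264464, minus strand, X-box from 36 to 49 bases after the start base, at the end of the window: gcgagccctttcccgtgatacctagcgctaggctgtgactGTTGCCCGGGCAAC
Ift57, chr16:49699194-49699286, plus strand, X-box from 60 to 48 bases before the start: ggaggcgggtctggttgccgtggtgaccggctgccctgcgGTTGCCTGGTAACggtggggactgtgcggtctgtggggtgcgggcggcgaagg
A match says only that these letters are present.

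In the main fit, no cilium gene on the list passed the test in any of the 6 comparisons of side and genotype. Values are log2 levels, so that a difference of 1 is a doubling of signal, and a call is an adjusted p under 0.05 from limma over 32615 probe sets. Between the closed and the open side, averaged over KO and WT, 0 of 42 genes were called, against 2.90% of all probe sets, and 5 of 42 (11.9%) had an unadjusted p under 0.05, against 13.2% of all. The changes of the 42 genes ran from -0.24 to 0.29, with 30 above and 12 below 0. Of all 32615 probe sets, 16587 were above 0 and 16028 below. The median of the 42 genes was 0.07, against 0.00 over all probe sets. The 95% confidence interval of 41 of the 42 changes lay within 0.5 of 0 in either direction, and that of 30 lay within 0.3.

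**Figure D1:**
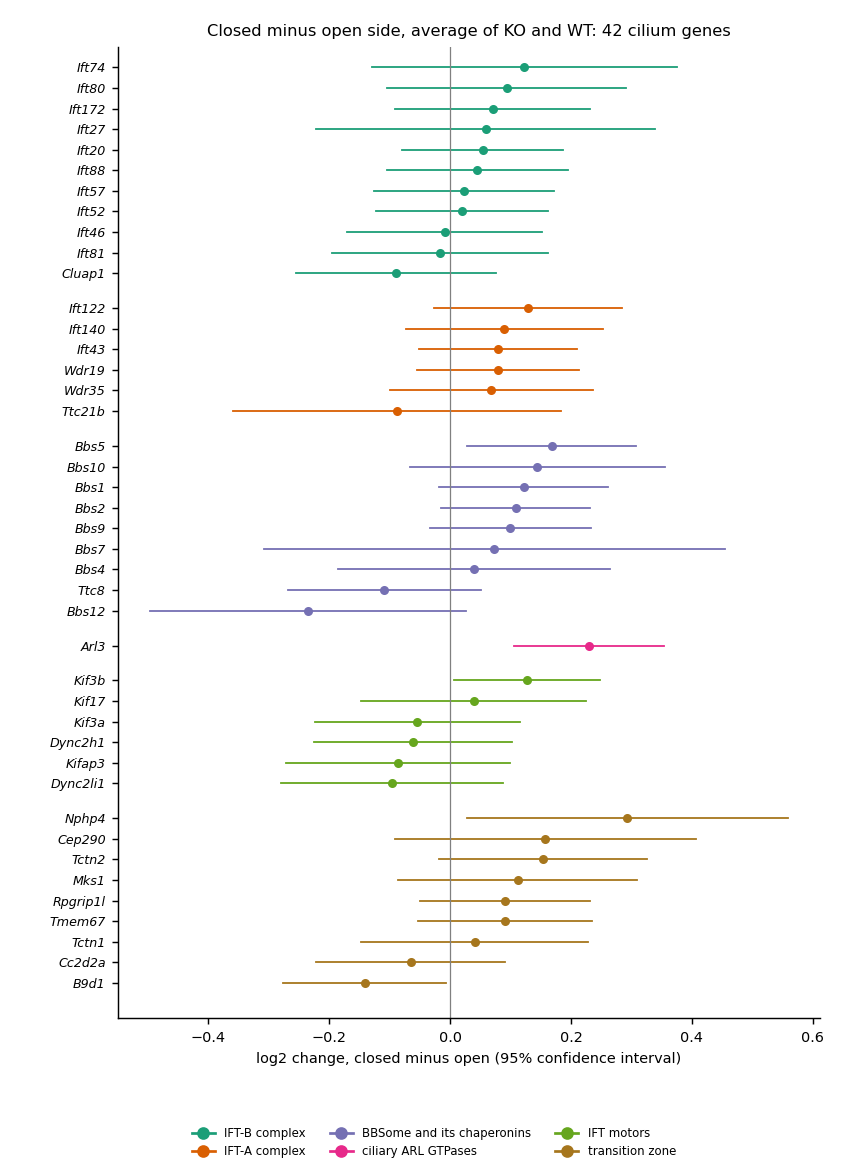
Log2 change (closed minus open, average of KO and WT, horizontal axis) of each of the 42 cilium genes, with its 95% confidence interval, coloured by role. All but 1 interval stay within 0.5 of 0, and those of Bbs5, Arl3, Kif3b, Nphp4 and B9d1 do not reach 0.

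Within each genotype the picture was similar. In the KO, 0 of 42 genes were called between the sides (1.05% of all probe sets) and 2 of 42 (4.76%) had an unadjusted p under 0.05 (10.5% of all). In the WT, 0 of 42 were called (0.855% of all) and 3 of 42 (7.14%) had an unadjusted p under 0.05 (9.34% of all). The median change was 0.04 in the KO and 0.07 in the WT, against 0.02 and -0.01 over all probe sets in the same genotypes. Without the third WT closed sample the WT median was 0.00 and that of the average 0.04. The change was above 0 in both genotypes for 21 genes, below 0 in both for 8 and of opposite sign for 13. The KO closed samples did not overlap the KO open samples for 10 genes (23.8%, against 17.3% of all probe sets), 8 higher and 2 lower, and the WT closed samples did not overlap the WT open samples for 5 genes (11.9%, against 13.2%), all higher. Only Arl3 and Kif3b (4.76%, against 2.66% of all probe sets) had every closed sample above every open sample in both genotypes.

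Arl3 came nearest to a call. It encodes the small GTPase that, inside the cilium, releases lipid-modified proteins from their carriers. Its log2 level was 11.17, 11.34 and 11.33 in the KO closed samples and 11.04, 11.09 and 11.11 in the KO open samples. In the WT it was 11.37, 11.29 and 11.36 in the closed samples and 11.08, 11.10 and 11.05 in the open samples. All 6 closed samples thus lay above all 6 open samples. The average change was 0.23 (standard error 0.06, 95% confidence interval 0.11 to 0.35, 1.17-fold), with an unadjusted p of 0.00169 and an adjusted p of 0.0548 from limma. The change was 0.20 in the KO (adjusted p = 0.401, limma) and 0.26 in the WT (adjusted p = 0.235, limma), and the difference between the genotypes was -0.07 (interval -0.32 to 0.18). Without the first KO closed sample the adjusted p of the average was 0.0449, and without any other sample it lay between 0.0827 and 0.153. Over 19 alternative settings, each left-out sample among them, Arl3 was called in the average in 6 (lowest adjusted p = 0.00168, limma) and not in 13.

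A list of 11 other genes covered lipid-linked cargo, Rab-dependent membrane traffic and ciliary membrane proteins. Some of these act with ARL3, and none is among the 42. In the average 3 of the 11 rose on the closed side and 8 did not pass the test, against 2.90% of all probe sets called. At an unadjusted p under 0.05 (limma) there were 4 (36.4%, against 13.2% of all probe sets), all higher. The list was chosen with earlier results of these data known, so this share is not an independent test. Of the 11 changes 7 were above 0 and 4 below, with a median of 0.07. Rp2, which switches ARL3 off, rose by 0.24 (standard error 0.06, adjusted p = 0.0424, limma). Its level was 10.67, 10.77 and 10.81 in the KO closed samples and 10.48, 10.60 and 10.56 in the KO open samples, and 10.75, 10.81 and 10.75 in the WT closed samples and 10.48, 10.48 and 10.52 in the WT open samples. The closed samples were higher in both genotypes, with no overlap.
Pde6d, which carries prenylated proteins that ARL3 releases, rose by 0.26 (standard error 0.05, adjusted p = 0.027, limma), with 11.20 ± 0.09 in KO closed and 10.97 ± 0.01 in KO open samples, and 11.24 ± 0.01 in WT closed and 10.96 ± 0.04 in WT open samples (SD, n = 3 each). Tulp3, an adaptor that brings membrane receptors into the cilium together with IFT-A, rose by 0.31 (standard error 0.06, adjusted p = 0.0225, limma), with 9.30 ± 0.09 in KO closed and 9.02 ± 0.12 in KO open samples, and 9.29 ± 0.02 in WT closed and 8.95 ± 0.06 in WT open samples (SD, n = 3 each). Unc119 and Unc119b, carriers of myristoylated proteins that ARL3 also releases, had changes of -0.10 (adjusted p = 0.692, limma) and 0.04 (adjusted p = 0.894, limma). The 3 calls were small, and leaving out 1 sample in turn ended that of Rp2 in 11 of 12 cases (adjusted p 0.0495 to 0.126), that of Pde6d in 10 (0.0313 to 0.0771) and that of Tulp3 in 7 (0.0165 to 0.0727). A fit with the sample number as a block, described below, also ended all 3.

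**Figure D2:**
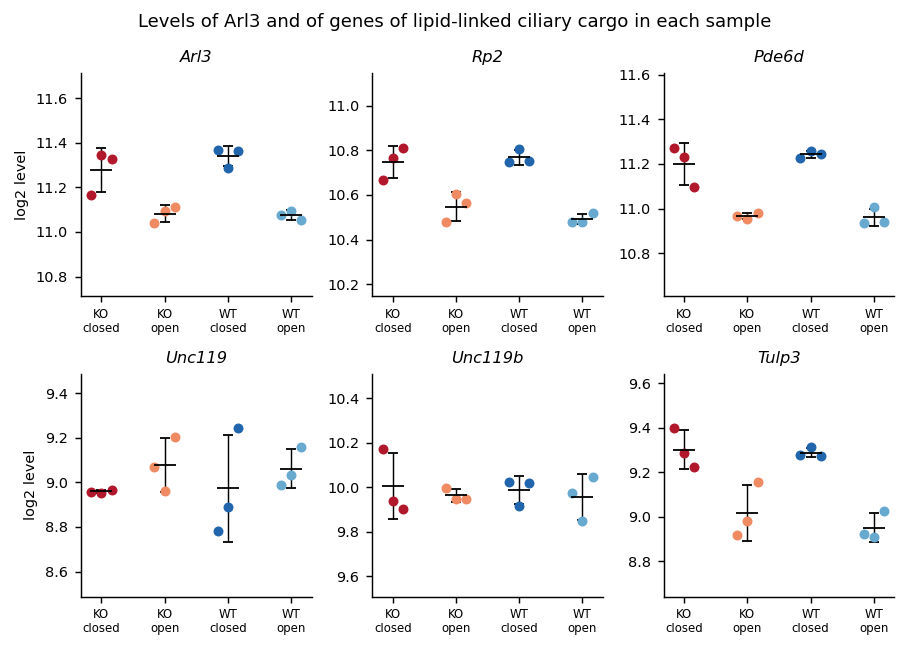
Log2 level (vertical axis) of Arl3 and of 5 genes of lipid-linked and membrane cargo in each of the 12 samples, with points for samples and bars for mean and SD (n = 3). Arl3, Rp2, Pde6d and Tulp3 are higher in closed than in open samples of both genotypes, while the sides overlap for Unc119 and Unc119b.

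None of the 11 IFT-B genes reached an unadjusted p under 0.05 (limma) between the sides. The shares of all probe sets were 13.2% in the average, 10.5% in the KO and 9.34% in the WT. With 11 genes, a count of 0 does not set the group apart from these shares. The median average change of the IFT-B genes was 0.04. The largest was that of Ift74, a core subunit that binds tubulin together with IFT81, at 0.12 (95% confidence interval -0.13 to 0.38, adjusted p = 0.747, limma). Ift74 was at 7.93, 8.63 and 8.42 in the KO closed and 8.17, 8.43 and 8.41 in the KO open samples, and at 8.44, 8.36 and 8.67 in the WT closed and 8.15, 8.37 and 8.20 in the WT open samples. The first KO closed sample was the lowest of the 12, and the sides overlapped in both genotypes. Cluap1, also known as Ift38, had the smallest p of the group in this comparison, with a change of -0.09 (adjusted p = 0.702, limma). The other subunits lay between, and Ift88, whose mutation stunts cilia in mice, changed by 0.04 (standard error 0.07).

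Of the 6 IFT-A genes, 5 had a change above 0 and the median was 0.08. Ift122, a core subunit, had the largest, 0.13 (interval -0.03 to 0.28, adjusted p = 0.50, limma). Its level was 9.21, 9.27 and 9.17 in the KO closed samples and 8.90, 9.06 and 9.11 in the KO open samples, which did not overlap. In the WT, 9.04, 9.08 and 9.25 in the closed samples overlapped 9.15, 9.13 and 8.91 in the open samples. Ift140 likewise separated the sides in the KO alone, and Wdr19, known as Ift144, in the WT alone, with no call of a difference between the genotypes for either (adjusted p = 1 each, limma).

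In the BBSome group, which here includes Bbs10 and Bbs12 of the chaperonin complex that assembles it, 7 of 9 genes had a change above 0 and the median was 0.10. Bbs5, a subunit that binds membrane lipids, had the smallest p, with a change of 0.17 (interval 0.03 to 0.31, adjusted p = 0.259, limma). It was at 9.51, 9.37 and 9.46 in the KO closed and 9.24, 9.31 and 9.46 in the KO open samples, and at 9.43, 9.54 and 9.59 in the WT closed and 9.34, 9.21 and 9.32 in the WT open samples. The sides were apart in the WT and overlapped in the KO. Bbs12 had the largest change, -0.24 (interval -0.50 to 0.03, adjusted p = 0.447, limma), opposite in sign to most of its group. Its WT closed samples spread widely, from 6.37 to 7.06, and overlapped the WT open samples at 7.16, 6.95 and 6.72.

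Among the 6 motor genes, 4 had a change below 0 and 2 above, and the median was -0.06. Kif3b, a motor subunit of heterotrimeric kinesin-2, was above 0. It was at 9.80, 9.82 and 9.78 in the KO closed and 9.60, 9.73 and 9.66 in the KO open samples, and at 9.80, 9.73 and 9.73 in the WT closed and 9.57, 9.61 and 9.71 in the WT open samples. The sides did not overlap in either genotype, but the change was small, 0.13 (interval 0.01 to 0.25, 1.09-fold, adjusted p = 0.347, limma). Its partner Kif3a and their linker Kifap3 changed by -0.05 and -0.09, with adjusted p of 0.855 and 0.761 (limma). Kif17, the homodimeric kinesin-2 linked to ciliary entry of the olfactory cyclic nucleotide-gated channel, had a side change of 0.22 in the KO and -0.14 in the WT. That difference between the genotypes, 0.35 (interval -0.02 to 0.73, unadjusted p = 0.0611, adjusted p = 1, limma), was the largest of the 42.

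Of the 9 transition zone genes, 7 had a change above 0 and the median was 0.09. Nphp4, which encodes nephrocystin-4, had the largest change of the 42 genes, 0.29 (interval 0.03 to 0.56, adjusted p = 0.313, limma). It was at 7.47, 7.28 and 7.51 in the KO closed and 6.88, 6.92 and 7.39 in the KO open samples, and at 7.41, 7.53 and 7.21 in the WT closed and 6.92, 7.50 and 7.03 in the WT open samples. In each genotype 1 open sample reached into the range of the closed ones. B9d1, a B9-domain protein of the Meckel syndrome complex, went the other way with -0.14 (interval -0.28 to -0.01, adjusted p = 0.347, limma). It separated the sides in the KO, at 8.49, 8.52 and 8.44 in closed against 8.75, 8.72 and 8.72 in open samples. Rpgrip1l had a change of -0.02 in the KO and 0.20 in the WT (adjusted p = 0.974 and 0.526, limma).

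**Figure D3:**
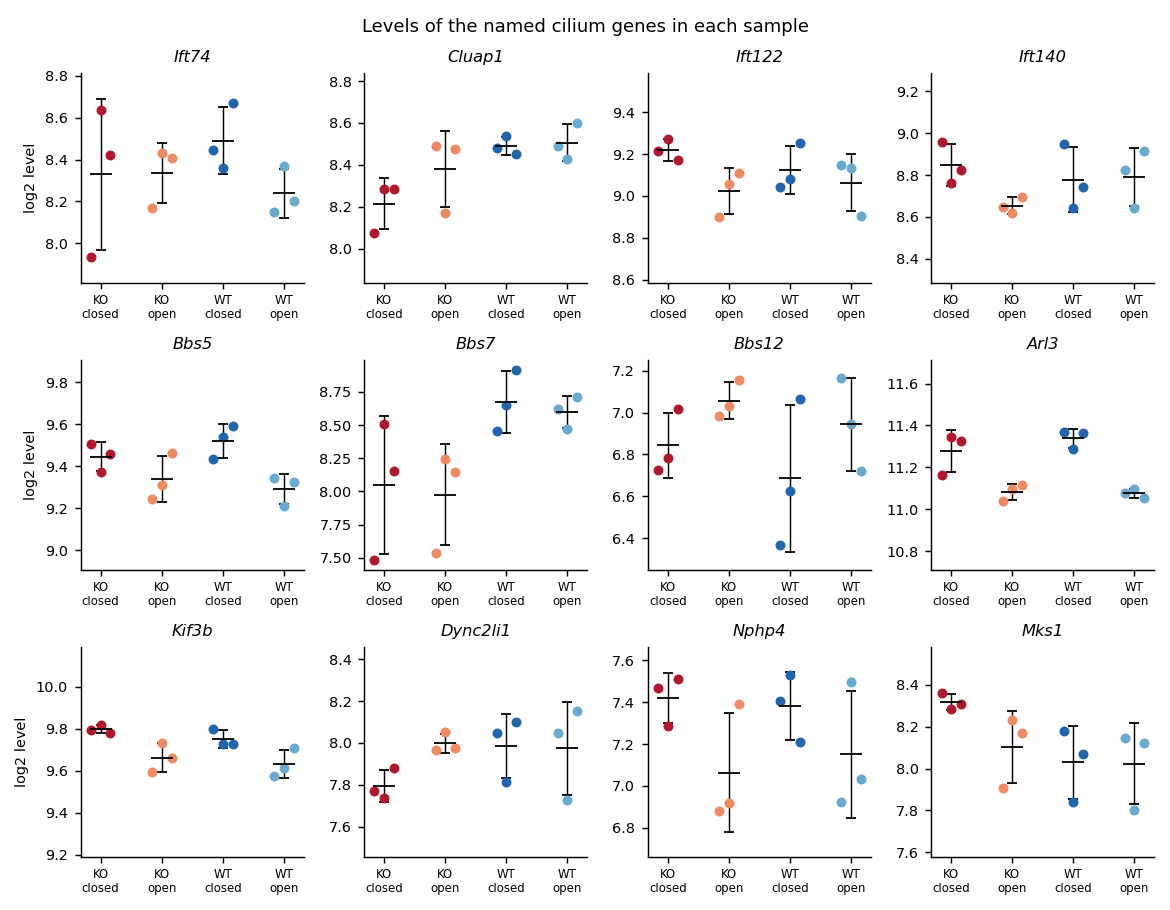
Log2 level (vertical axis, spanning at least 1 unit) of 12 cilium genes in each sample of the 4 groups, with points for samples and bars for mean and SD (n = 3). Bbs7 is lowest in the first KO sample of both sides, and the closed samples of Arl3 and Kif3b lie above the open samples of the same genotype.

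Between KO and WT, on the closed side, 0 of 42 genes were called (0.0245% of all probe sets), 3 of 42 (7.14%) had an unadjusted p under 0.05 (4.26% of all), and the groups did not overlap for 4 genes (9.52%, against 8.82%). On the open side, 0 of 42 were called (0.0215% of all), 1 of 42 (2.38%) had an unadjusted p under 0.05 (6.67% of all), and the groups did not overlap for 4 genes (9.52%, against 12.4%). The median difference was -0.01 on the closed and 0.01 on the open side, against 0.00 and -0.04 over all probe sets. H2be itself still read 11.31 to 11.46 in the 6 KO samples, against 11.55 to 11.75 in the 6 WT samples. Its KO minus WT difference was -0.28 between closed samples (limma, unadjusted p = 0.00259, adjusted p = 0.999) and -0.26 between open samples (limma, unadjusted p = 0.00345, adjusted p = 0.641), and where its probes lie is not given in the sources used here. In the test of whether the side change differed between the genotypes, 0 of 42 genes were called (0% of all probe sets) and 0 had an unadjusted p under 0.05 (4.01% of all).

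The largest difference between the genotypes was that of Bbs7, a BBSome subunit that binds BBS2 and BBS9. It was at 7.48, 8.51 and 8.15 in the KO closed samples, against 8.45, 8.65 and 8.92 in the WT closed samples. On the open side it was at 7.54, 8.24 and 8.14 in the KO, against 8.62, 8.47 and 8.71 in the WT. The first KO sample of each side was lowest, and the closed samples of the genotypes overlapped while the open samples did not. The difference was -0.63 on the closed side (interval -1.17 to -0.09, adjusted p = 0.999, 0.0265 unadjusted, limma) and -0.62 on the open side (interval -1.16 to -0.08, adjusted p = 0.703, 0.0271 unadjusted, limma). Without the first KO closed sample the closed difference was -0.34 (unadjusted p = 0.136, limma), and without the first KO open sample the open difference was -0.41 (unadjusted p = 0.129, limma). Whether these samples share mice is not stated.

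Cluap1 was lower in the KO on the closed side by -0.28 (interval -0.51 to -0.04, adjusted p = 0.999, limma), at 8.07, 8.29 and 8.28 in the KO, against 8.48, 8.54 and 8.45 in the WT. Mks1, which encodes a B9-domain protein of the transition zone, differed by 0.29 (interval 0.01 to 0.57, adjusted p = 0.999, limma), at 8.36, 8.28 and 8.31 in the KO, against 8.18, 7.84 and 8.07 in the WT. Both sets of closed samples were apart without passing the test. For Ift140 and for Dync2li1, a light intermediate chain of dynein-2, the smallest p between the genotypes was 0.214 on the open side and 0.134 on the closed side (unadjusted, limma). The 4 genes with the strict X-box, Bbs7, Mks1, Tctn1 and Ift57, had differences of -0.63, 0.29, 0.13 and -0.004 on the closed side. On the open side these were -0.62, 0.08, -0.07 and 0.15, and none was called on either side. A link between the X-box and the genotype differences was not tested.

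**Figure D4:**
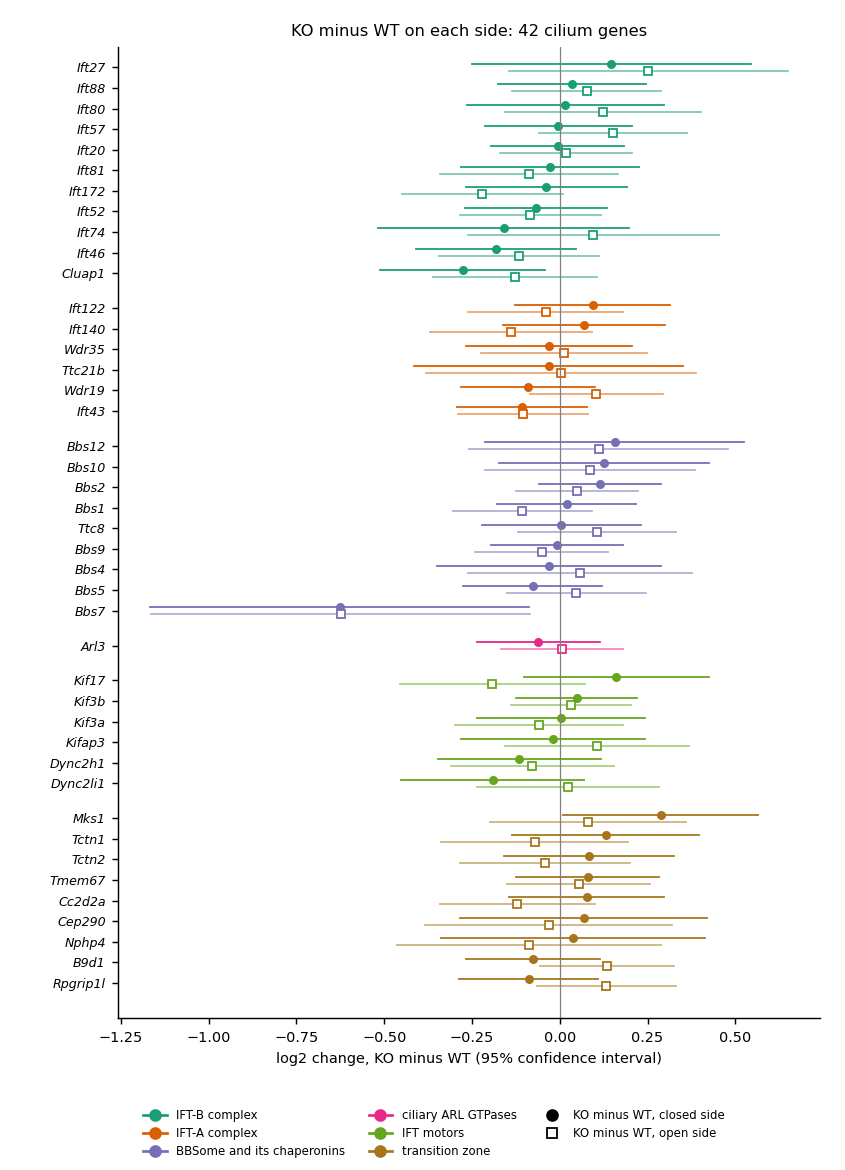
Log2 difference (KO minus WT, horizontal axis) of each of the 42 cilium genes on the closed side (filled circles) and the open side (open squares), with 95% confidence intervals, coloured by role. Bbs7 lies at -0.63 and -0.62, and all other differences lie within 0.3 of 0.

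Other genes of the cilium, 76 from lists of further IFT, basal body, membrane cargo, transcription factor and odor transduction genes, were measured for 73, and on the closed side 14 rose and none fell in the average, with 59 not called (2.90% of all probe sets called). At an unadjusted p under 0.05 there were 26 (35.6%, against 13.2% of all probe sets), 24 higher and 2 lower. Of these 26, 11 were in the odor transduction list, which also held the receptor trafficking genes Rtp1, Rtp2 and Reep1. The lists were chosen with earlier results of these data known, so their shares and medians are not an independent test. Of the 14 genes that rose, 1 was among the 15 measured genes of IFT, BBSome and motors, Traf3ip1, the IFT-B subunit also named IFT54. It rose by 0.24 (standard error 0.06, adjusted p = 0.0487, limma), a call that ended whichever sample was left out (adjusted p 0.0647 to 0.129). Of these 15 genes 4 (26.7%, against 13.2% of all probe sets) had an unadjusted p under 0.05 (limma), all higher. Of the 15 changes 10 were above 0 and 5 below, with a median of 0.09. Of 22 measured genes of the transition zone and basal body 0 were called. At an unadjusted p under 0.05 (limma) there were 4 (18.2%, against 13.2% of all probe sets), 2 higher and 2 lower. Of the 22 changes 9 were above 0 and 13 below, with a median of -0.04. Cep83, a distal appendage protein, had the highest, 0.25 (adjusted p = 0.0556, limma), and the lowest was -0.22. Of 14 genes in the odor transduction list 8 rose. Among them, Adcy3, the adenylyl cyclase of olfactory cilia, rose by 0.29 (adjusted p = 0.00997, limma) and Cnga4, of the olfactory cyclic nucleotide-gated channel, by 0.40 (adjusted p = 0.00174, limma). Of these 8 calls, those of Adcy3, Cnga4, Cngb1 and Ano2 held whichever sample was left out, while those of Cnga2, Gnal, Rtp1 and Reep1 ended without 5 to 10 of the 12 samples in turn (adjusted p from 0.0272 to 0.0907, limma). The odor transduction list had a median change of 0.26, against 0.07 for the 42 genes of ciliary structure and transport. Cngb1, another channel subunit, rose by 0.38 on its brightest probe set, and by 0.11 (adjusted p = 0.555, limma) on the mean of its probe sets.

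Of 11 transcription factors of ciliogenesis, 2 rose in the average, against 2.90% of all probe sets called. Of the 11 changes 7 were above 0 and 4 below. Rfx4, an X-box factor, was at 7.13, 7.25 and 7.36 in the KO closed and 5.99, 6.46 and 6.45 in the KO open samples, and at 7.43, 7.24 and 7.10 in the WT closed and 6.21, 6.56 and 6.32 in the WT open samples. Its average change of 0.92 (standard error 0.10, 1.89-fold, adjusted p = 0.000486, limma) was the largest of these lists, and it was called in the KO (0.95, adjusted p = 0.0107, limma) and in the WT (0.90, adjusted p = 0.0162, limma). The average call held whichever sample was left out. The KO call ended without KO closed sample 2 or 3 (adjusted p = 0.0526 and 0.0573, limma). The WT call ended without WT closed sample 1 or 2 or WT open sample 1 or 3 (adjusted p = 0.0644 to 0.0857, limma). Rfx3, an X-box factor required for nodal cilia in mice, rose by 0.26 (adjusted p = 0.029, limma), with 9 of 12 left-out samples ending the call (adjusted p 0.0303 to 0.092). Rfx1 and Rfx2 had changes of 0.12 and 0.10 (adjusted p = 0.611 and 0.78, limma). The 4 cilium genes with the strict X-box had average changes between 0.02 and 0.11, with a median of 0.06, against 0.07 for the 33 measured genes with a promoter entry and no such match. For the left arm alone the median was 0.07 in 17 genes with it and 0.07 in 20 without. For the looser form it was 0.04 in 21 genes with it and 0.09 in 16 without. A link between the X-box and the side changes was not tested.

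**Figure D5:**
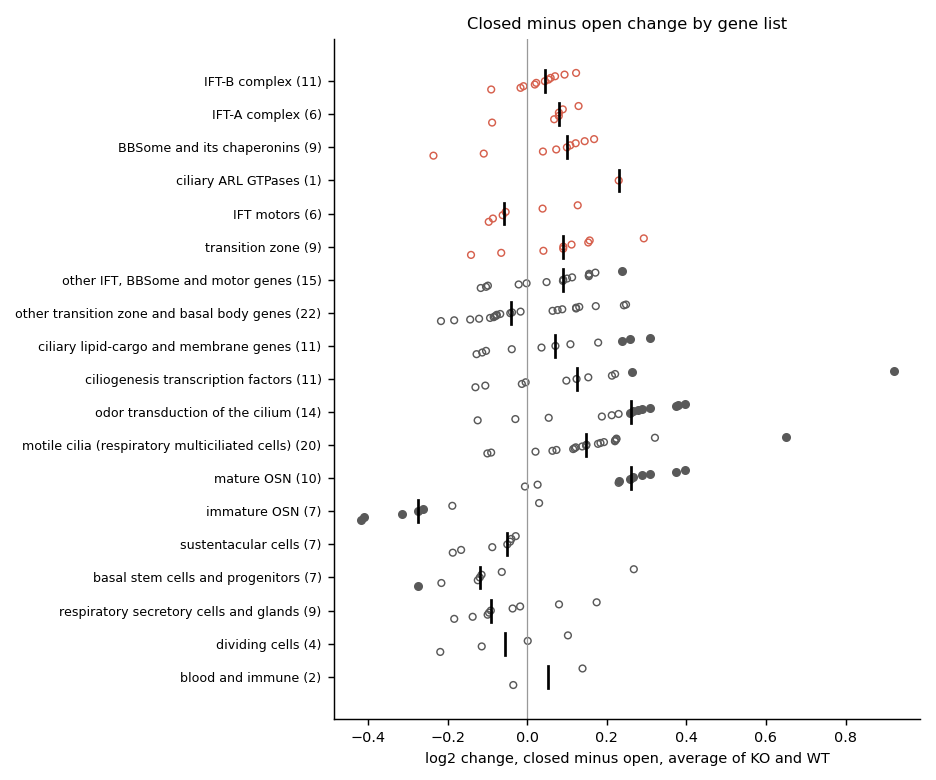
Log2 change (closed minus open, average of KO and WT, horizontal axis) of each measured gene, by list, with the number of genes in brackets, filled points for an adjusted p under 0.05 and bars for medians; the cilium genes described here are in red. No red point is filled, while 8 of 14 genes in the odor transduction list, 7 of 10 mature OSN genes and 5 of 7 immature OSN genes are.

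Marker lists of the cells that carry cilia differed in how many of their genes changed with the side. Over all probe sets 2.90% were called in the average. Of 10 mature OSN genes, 7 rose in the average and none fell, and 7 of the 10 also stand in the odor transduction list, so that among the risen genes only Stoml3 was not counted there. Their mean log2 level was 10.99 to 11.01 in KO closed, 10.67 to 10.76 in KO open, 10.85 to 10.98 in WT closed and 10.69 to 10.75 in WT open samples. Omp, the defining marker of mature OSNs, was high in every sample, at 12.53 to 12.71, and had a change of 0.03 (adjusted p = 0.91, limma). Of 7 immature OSN genes, 5 fell, with a mean level of 9.50 to 9.54 in KO closed, 9.72 to 9.83 in KO open, 9.46 to 9.56 in WT closed and 9.78 to 9.79 in WT open samples. Of 20 genes of motile cilia, which mark respiratory multiciliated cells, 1 rose, the dynein intermediate chain gene Dnai2, by 0.65 (adjusted p = 0.000686, limma). Of the 20, Foxj1 also stands in the list of ciliogenesis transcription factors. At an unadjusted p under 0.05 (limma) there were 6 of the 20 (30%, against 13.2% of all probe sets), all higher. Changes above 0 were found in 18 of the 20 genes, with a median of 0.15. Their mean level was 8.37 to 8.56 in KO closed, 8.18 to 8.48 in KO open, 8.42 to 8.67 in WT closed and 8.20 to 8.42 in WT open samples. The mean level of the 42 cilium genes was 8.98 to 9.06 in KO closed, 8.91 to 9.04 in KO open, 8.98 to 9.11 in WT closed and 8.98 to 9.02 in WT open samples. None of the 7 sustentacular genes passed the test, and 1 of the 7 basal cell genes did, Neurod1, which fell. At an unadjusted p under 0.05 (limma) there were 2 sustentacular genes (28.6%, against 13.2% of all probe sets), both lower. There were 3 basal cell genes (42.9%), 1 higher and 2 lower. All 7 sustentacular changes and 6 of the 7 basal cell changes were below 0, with medians of -0.05 and -0.12. The part of these cell types in the values of the cilium genes was not tested.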

How the data were processed

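The authors scaled the arrays by sketch-quantile normalization, used IterPLIER to summarise probes, both in Affymetrix Expression Console, and deposited log2 values, with versions not given in the sources used here. The table held 35556 probe sets and 12 samples. Array medians lay between 7.21 and 7.3, and samples correlated at 0.965 to 0.978 within groups and 0.963 to 0.977 between groups. With 3 arrays per group, their number limits the precision.

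A model with 4 group means was fitted with limma 3.58.1 (R 4.3.3) to 32615 probe sets whose mean log2 value exceeded 5, and p-values were adjusted over all of them by Benjamini-Hochberg. Each gene was read from its brightest probe set with 1 symbol, and all 42 genes passed the filter. Genes were named where called, and otherwise by the largest average side change, the smallest p of it and the smallest p between genotypes in each role group. Rpgrip1l, Wdr19, B9d1, Kif17, Kif3a, Kifap3, Ift88, Unc119, Unc119b, Rfx1, Rfx2 and Cep83 were added after their values were seen. Genes and lists were chosen with earlier results of these data known. Older symbols served 5 genes. Alternatives were other filters, normalizations and fits, and each sample left out. The fit was tested on simulated data. Figures were drawn with matplotlib.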

Additional observations from a re-analysis of the deposited data

How the results depend on the processing

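No cilium gene was called between KO and WT, in the difference between genotypes or between the sides of the KO under any of the alternatives run. Between the sides, the count of called genes was 1, Arl3 each time, in the average comparison without a filter, above a mean log2 value of 7, with quantile normalization, with trend and robust fitting and with the mean of the probe sets of a gene (adjusted p = 0.00168 to 0.0473, limma), and in the WT with trend and robust fitting (adjusted p = 0.0309, limma). It was 0 to 1 when each sample was left out in turn in the average comparison and 0 throughout in the 5 other comparisons. Under median centring Arl3 had an adjusted p of 0.0684 (limma). No change of the genes examined in this way turned its sign, over 37 gene comparisons with 714 values from 20 alternative settings. Deviations of same-numbered closed and open samples correlated at -0.009 to 0.233, and those of different numbers in a genotype at -0.186 to 0.127. Of 6 closed samples 3 were closest to the open sample of their own number. This check does not settle whether samples are paired, and the main fit did not pair them by number. This number was also used as a replicate block, within each genotype for the side comparisons. For KO minus WT the block joined KO and WT samples of the same number, which are of different mice. With the block 0 cilium genes were called in any comparison, and Arl3 had an adjusted p of 0.102 in the average (limma). The probe sets called numbered 116 in the KO, 97 in the WT and 647 in the average, against 341, 279 and 945 without the block. Of the 14 calls of other cilium genes in the average the block ended 9 (Traf3ip1, Pde6d, Rp2, Tulp3, Rfx3, Cnga2, Gnal, Rtp1 and Reep1), of the 4 in the KO 3 (Cnga4, Cngb1 and Ano2) and of the 2 in the WT both (Rfx4 and Cnga4). With 3 arrays per group, single-genotype intervals of the cilium genes reached a median of 0.23 to either side of the change.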
